A study of Mus musculus with 26 samples.

Results

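The PIM kinases Pim1, Pim2 and Pim3 were read in mouse Ba/F3/gp130 cells on 26 Affymetrix Mouse Gene arrays. They were chosen as the probe sets annotated to exactly 1 of these symbols, which gave 3 of 35556 probe sets and 3 of 19938 genes, with 1 probe set for each gene. Pim1 was read by probe set 10443527, Pim2 by 10598467 and Pim3 by 10426110. In short, Pim1 rose with IL-22 and with both synthetic ligands. Pim2 rose with both synthetic ligands, and with IL-22 it missed the threshold in the main model, which paired no arrays (limma, adjusted p = 0.0699). It passed in 7 of 20 other settings, with pairing and without it, among them the replicate number as a fixed block (limma, adjusted p = 0.00124). It missed in 13, among them a fit of only the groups compared (limma, adjusted p = 0.333). Pim3 passed no test against untreated cells except for a 1.17-fold fall with mCherry-Fc, a call that was lost in several settings.

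PIM kinases are serine/threonine kinases that are active as soon as they are made, so their activity is set mainly by how much mRNA and protein a cell holds. Cytokine receptors induce them, above all through the transcription factors STAT3 and STAT5, and NF-kB can induce them as well. They are known for supporting growth and survival of blood cells when cytokine is scarce, for phosphorylating proteins such as BAD and the cell cycle inhibitor p27, and for acting together with MYC in lymphoma.

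Ba/F3/gp130 is a murine pro-B cell line, dependent on IL-3 or on Hyper-IL-6, that also carries gp130, the signal chain of the IL-6 receptor family. All cells were washed 4 times, starved for 4 h without serum and then, where treated, given purified protein at 100 ng/ml for 2 h, since no label names another time. Cells with natural receptors carried IL-10R2/IL-22Rα1, the chains that IL-22 binds in nature. They were left untreated (n = 4) or given IL-22 (n = 4). Cells with synthetic receptors carried the same chains joined to nanobodies, mCherryVHH-IL-10R2 and GFPVHH-IL-22Rα1, and stayed untreated (n = 6), were given the fusion protein GFP-mCherry (n = 6), for which both chains have a nanobody, or were given mCherry-Fc (n = 6), for which only the IL-10R2 chain has one. No group received a protein without a target on the cells, so contrasts with untreated cells cannot tell joining of receptor chains apart from addition of protein. The labels do not say whether either line is 1 clone or whether replicates came from separate cultures, so the p-values measure the spread between these arrays, which may be technical.

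The promoter sequences are shown because the members differed in their response, and each window holds the 250 bases before the RefSeq start site on the plus strand of GRCm38.p6. That build is RefSeq's, and the build behind the array design is not given in the sources used here. Capitals mark every match to the GC box GGGCGG, the letters bound by SP1, on either strand. Pim1 lies at chr17:29490785-29496111, Pim2 at chrX:7878306-7883432 and Pim3 at chr15:88862194-88865726.
Pim1, chr17:29490535-29490784: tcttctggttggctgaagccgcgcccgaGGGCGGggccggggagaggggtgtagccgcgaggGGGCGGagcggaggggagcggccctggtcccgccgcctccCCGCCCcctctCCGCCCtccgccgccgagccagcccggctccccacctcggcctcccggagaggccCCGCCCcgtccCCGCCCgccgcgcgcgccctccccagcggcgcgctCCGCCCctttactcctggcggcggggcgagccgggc
Pim2, chrX:7878056-7878305: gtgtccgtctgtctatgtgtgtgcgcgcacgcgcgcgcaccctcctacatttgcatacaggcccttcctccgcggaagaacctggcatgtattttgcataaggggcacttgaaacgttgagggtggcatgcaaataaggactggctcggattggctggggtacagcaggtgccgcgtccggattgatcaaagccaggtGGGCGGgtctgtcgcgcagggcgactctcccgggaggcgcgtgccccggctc
Pim3, chr15:88861944-88862193: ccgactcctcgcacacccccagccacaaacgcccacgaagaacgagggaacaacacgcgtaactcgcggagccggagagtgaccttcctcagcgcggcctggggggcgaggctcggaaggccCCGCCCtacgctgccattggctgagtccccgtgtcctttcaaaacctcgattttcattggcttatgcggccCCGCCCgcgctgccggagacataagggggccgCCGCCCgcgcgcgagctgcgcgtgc

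The GC box was found 7 times in the Pim1 window, 1 time in that of Pim2 and 3 times in that of Pim3, and 32.7% of all 32851 windows of this length held at least 1. GC content was 82.4% for Pim1, 62.0% for Pim2 and 68.0% for Pim3, against a median of 52.4% over all windows. Both strands were also searched for the STAT motif TTCNNNGAA (in 7.02% of all windows), for TTCNNNNGAA (5.85%), for the kB consensus (3.90%), for TATAAA (12.4%) and for the E-box CACGTG (6.02%). None of these was found in the 3 windows printed. A second RefSeq start of Pim1, whose window is not printed, held 1 E-box at position -58. These matches describe letters only, and a missing match says nothing about what lies outside the window.

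The deposited values are log2 intensities, and arrays of 1 group correlated at 0.981 to 0.994 across probe sets. For the pro-B label, the mean log2 intensity of B lineage genes was 9.55 for Cd79a, 8.98 for Cd79b, 5.39 for Pax5 and 4.67 for Ebf1, and 2 of the 9 measured lay above the median over genes of 6.53. So did 0 of 5 T cell, 0 of 5 mast cell and 2 of 2 erythroid markers. Intensities of different probe sets cannot be ranked as expression, so these values neither show nor deny that a marker is expressed. Arrays also differed by replicate number. Myeloid genes were higher on the natural receptor arrays numbered 4 and 5, where Itgam, an integrin chain, read 11.73 to 12.05 against 8.73 to 8.98 on those numbered 1 to 3. Mpo, the granule peroxidase, read 10.62 to 11.00 against 6.97 to 7.19. The log2 values of the 6 myeloid markers summed to 47.8 to 49.9 on the high-numbered natural arrays, 36.6 to 37.1 on the low-numbered ones and 31.7 to 33.9 on synthetic receptor arrays. What the numbers stand for is not given in the sources used here, so the PIM genes are also given for low numbers (natural 1 to 3, synthetic 7 to 11) and high numbers (natural 4 and 5, synthetic 12 to 15) in each comparison.

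**Figure D1:**
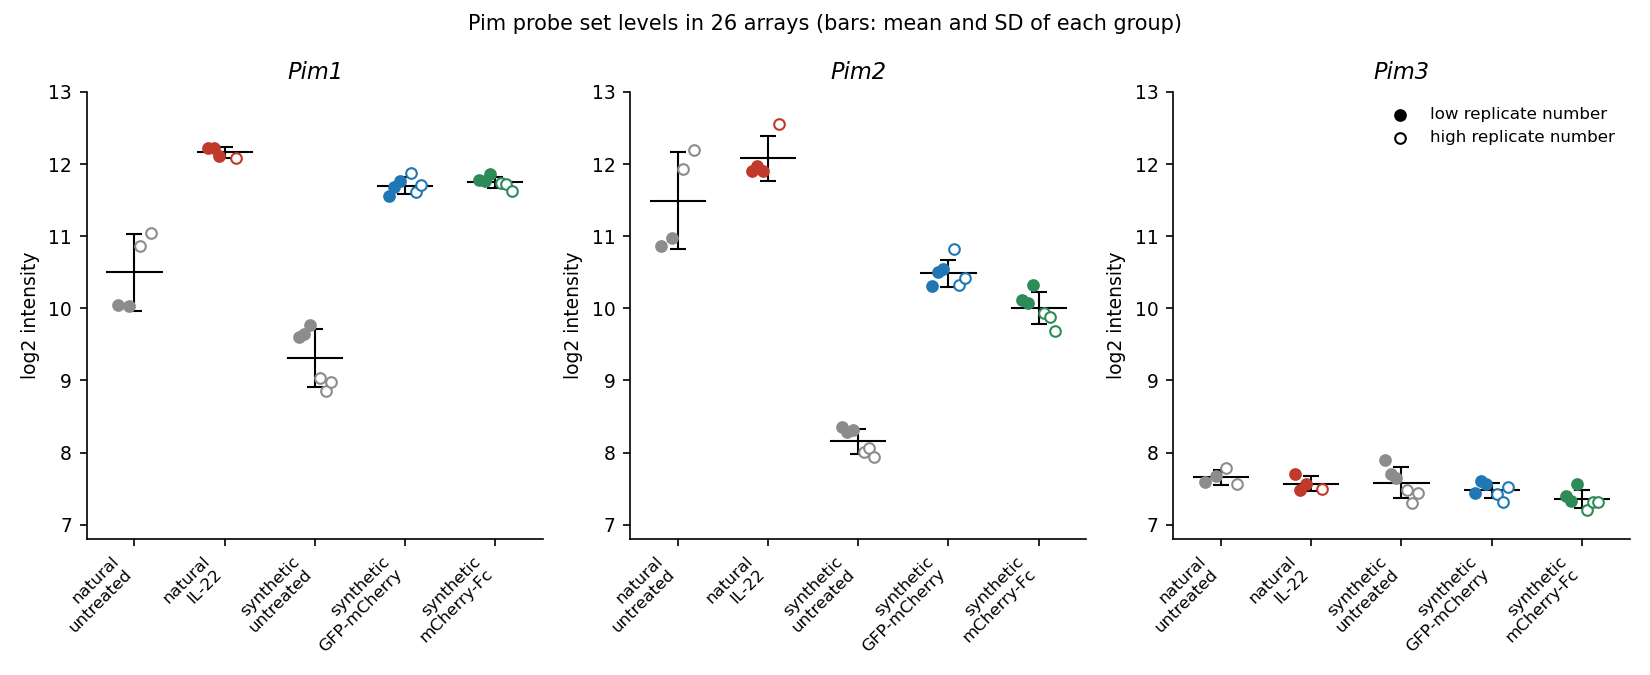
Log2 intensity of Pim1, Pim2 and Pim3 on each of the 26 arrays, by group, with low and high replicate numbers marked apart and the group mean ± SD. Pim1 and Pim2 were lowest in untreated synthetic receptor cells, and Pim3 stayed between 7.21 and 7.90 on every array.

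Pim1 had the highest group mean in IL-22 treated natural cells, at 12.16 ± 0.08 (log2 intensity, SD, n = 4). mCherry-Fc (11.75 ± 0.08, n = 6) and GFP-mCherry (11.70 ± 0.11, n = 6) followed, and these groups did not differ from each other beyond their spread. Every IL-22 array (12.08 or more) lay above every array of the synthetic ligands (11.88 or less). Untreated natural cells stood at 10.50 ± 0.54 (n = 4) and untreated synthetic cells lowest, at 9.31 ± 0.40 (n = 6).

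Pim2 followed another order. Its group mean was 12.08 ± 0.31 (log2 intensity, SD, n = 4) with IL-22 and 11.49 ± 0.67 (n = 4) in untreated natural cells, and the arrays of these neighbours overlapped. GFP-mCherry (10.48 ± 0.19, n = 6) and mCherry-Fc (10.00 ± 0.22, n = 6) came next and overlapped by 0.01, and untreated synthetic cells stood at 8.16 ± 0.18 (n = 6). Thus Pim2 read higher in untreated natural cells than in treated synthetic cells, which was not so for Pim1.

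Pim3 kept group means between 7.36 ± 0.12 (log2 intensity, SD, n = 6, mCherry-Fc) and 7.65 ± 0.10 (n = 4, untreated natural). GFP-mCherry stood at 7.48 ± 0.10 (n = 6), IL-22 at 7.57 ± 0.10 (n = 4) and untreated synthetic cells at 7.58 ± 0.22 (n = 6), and all neighbours in this order overlapped. No detection value or background was used here, so how large a change its probe set could show is not known.

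The first comparison asked how IL-22 acts through its natural receptors. Pim1 rose, Pim2 was higher but missed the threshold in the main model, which paired no arrays, and Pim3 did not pass. Pim2 passed in 7 of 20 other settings, with pairing by number and without it, and missed in 13. With an unpaired batch term for the number range it was 0.81 higher (limma, adjusted p = 8.78e-06). On the untreated arrays numbered 2, 3, 4 and 5, Pim1 read 10.04, 10.03, 10.87 and 11.05 (log2 intensity). With IL-22, arrays 1, 2, 3 and 5 read 12.23, 12.23, 12.11 and 12.08. Every treated array lay above every untreated one, with a gap of 1.03, and the untreated arrays split into a lower pair (2 and 3) and a higher pair (4 and 5). The difference was 1.67 on the log2 scale (SE 0.19, 95% interval 1.29 to 2.05), a 3.18-fold rise (limma, adjusted p = 1.11e-07), and ranked 55 among all 19938 genes by size. Over all genes 11.4% passed, 5.39% upward and 6.03% downward, and of the 3 PIM genes 1 did. The same share of genes, 11.4%, had groups that did not overlap. Marker genes moved in this contrast too: the erythroid genes Klf1 (-1.12, adjusted p = 3.11e-12) and Epor (-0.26, adjusted p = 0.0315) and the B lineage gene Cd79b (-0.29, adjusted p = 0.0105) fell, and 0 of 6 myeloid markers passed (median -0.59). The untreated group holds 2 high-numbered arrays and the IL-22 group 1. Within low numbers the summed myeloid log2 values were 36.7 to 37.1 untreated and 36.6 to 37.0 with IL-22. Among high numbers they were 47.8 to 49.9 and 49.5. The part of these markers in the PIM results was not tested. In bulk samples such as these, fewer cells of a kind and less RNA per cell cannot be told apart.

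Pim2 read 10.87, 10.98, 11.93 and 12.20 on the untreated natural arrays 2, 3, 4 and 5 (log2 intensity). With IL-22 it read 11.90, 11.97, 11.90 and 12.55 on arrays 1, 2, 3 and 5. The groups overlapped, because untreated arrays 4 and 5 reached the treated level. The difference of 0.58 (SE 0.21, 95% interval 0.16 to 1.01) did not pass (limma, adjusted p = 0.0699). Without untreated array 4 it was 0.73 (adjusted p = 0.0260), and without untreated array 5 it was 0.82 (adjusted p = 0.00426). Without untreated array 2 it dropped to 0.37 (adjusted p = 0.313), without untreated array 3 to 0.41 (adjusted p = 0.282), and without IL-22 array 5 to 0.43 (adjusted p = 0.219). Over all genes, deviations of same-numbered natural arrays from their group means correlated at 0.38, 0.31 and 0.62 (numbers 2, 3 and 5). For IL-22 array 3 an untreated array of another number matched better. Arrays of 1 number also share a number range, so these values cannot tell pairing by number apart from the range. With the replicate number as a fixed block, which keeps numbers 2, 3 and 5 only, Pim2 was 0.79 higher (SE 0.14, limma, adjusted p = 0.00124). Its differences within those numbers were 1.10, 0.92 and 0.35. The high-numbered untreated arrays with high Pim2 are those with high myeloid markers, and their part in the result was not tested.

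Pim3 read 7.59, 7.67, 7.79 and 7.57 on untreated natural arrays 2 to 5 and 7.71, 7.48, 7.57 and 7.50 on IL-22 arrays 1, 2, 3 and 5 (log2 intensity). The groups overlapped throughout. The difference was -0.09 (SE 0.10, 95% interval -0.29 to 0.11, limma, adjusted p = 0.731). It was -0.04 within low and -0.18 within high numbers.

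GFP-mCherry, for which both synthetic chains carry a nanobody, raised both Pim1 and Pim2. Pim1 ranged from 8.85 to 9.77 (median 9.32) on the 6 untreated arrays and from 11.56 to 11.88 (median 11.70) on the 6 treated ones (log2 intensity). The groups were apart by 1.79. The rise was 2.39 on the log2 scale (SE 0.15, 95% interval 2.08 to 2.70), or 5.24-fold (limma, adjusted p = 4.7e-12), and ranked 4 among all genes. Pim2 ranged from 7.94 to 8.35 (median 8.17) untreated and from 10.31 to 10.82 (median 10.46) treated, with a gap of 1.96. It rose by 2.33 (SE 0.17, 95% interval 1.98 to 2.67), or 5.01-fold (limma, adjusted p = 7e-11), and ranked 6. Of all genes 26% passed, 14.2% upward and 11.8% downward, while 14.1% had groups that did not overlap. Among the upward calls were 2 of the 3 PIM genes, whose groups did not overlap. Of the called genes 54.8% were higher, and 88.5% were when each array was centred on its median.

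Pim3 ranged from 7.30 to 7.90 (median 7.56) untreated and from 7.32 to 7.60 (median 7.48) with GFP-mCherry. The groups overlapped, and the difference of -0.10 (SE 0.08, 95% interval -0.26 to 0.06) did not pass (limma, adjusted p = 0.369). Within low numbers it was -0.22 (adjusted p = 0.0727) and within high numbers 0.01 (adjusted p = 0.921). Of the markers, Klf1 (-0.40) and the pre-B gene Vpreb3 (-0.25) fell and Epor (0.26) and Cd79a (0.21) rose, and 1 of 5 mast cell and 0 of 6 myeloid markers passed. Their part in the PIM results was not tested.

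mCherry-Fc, for which the IL-10R2 chain alone carries a nanobody, was compared with the same 6 untreated arrays, so its contrast is not independent of the GFP-mCherry contrast. Pim1 ranged from 11.63 to 11.86 (median 11.76) on the 6 treated arrays (log2 intensity), a gap of 1.86 above the untreated ones. Its rise of 2.44 (SE 0.15, 95% interval 2.12 to 2.75), or 5.41-fold (limma, adjusted p = 8.24e-12), was the largest difference of any gene in this comparison. Pim2 ranged from 9.68 to 10.33 (median 10.00), with a gap of 1.33, and its rise of 1.84 (SE 0.17, 95% interval 1.5 to 2.19), or 3.59-fold (limma, adjusted p = 1.85e-08), ranked 2. Here 26.9% of all genes passed, 14.0% upward and 13.0% downward, and 11.3% had groups that did not overlap. Of the called genes 51.9% were higher, or 88.8% with each array centred on its median.

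Pim3 was 1.17-fold lower with mCherry-Fc, between 7.21 and 7.57 (median 7.32), and the groups overlapped. The difference of -0.22 (SE 0.08, 95% interval -0.38 to -0.06) passed narrowly (limma, adjusted p = 0.0414), and 3 of the 3 PIM genes thus passed here. The call was lost without any 1 of untreated arrays 7, 9 and 11 or mCherry-Fc arrays 9, 13, 14 and 15 (differences down to -0.16, adjusted p from 0.0627 to 0.137), and in 5 other settings, among them centring each array on its median, where the difference was -0.11 (adjusted p = 0.236). Of the markers, Klf1 (-0.25), Vpreb3 (-0.31), 2 of 5 T cell and 2 of 5 mast cell genes fell, Epor (0.25) rose and 0 of 6 myeloid genes passed. Their part in the PIM results was not tested.

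**Figure D2:**
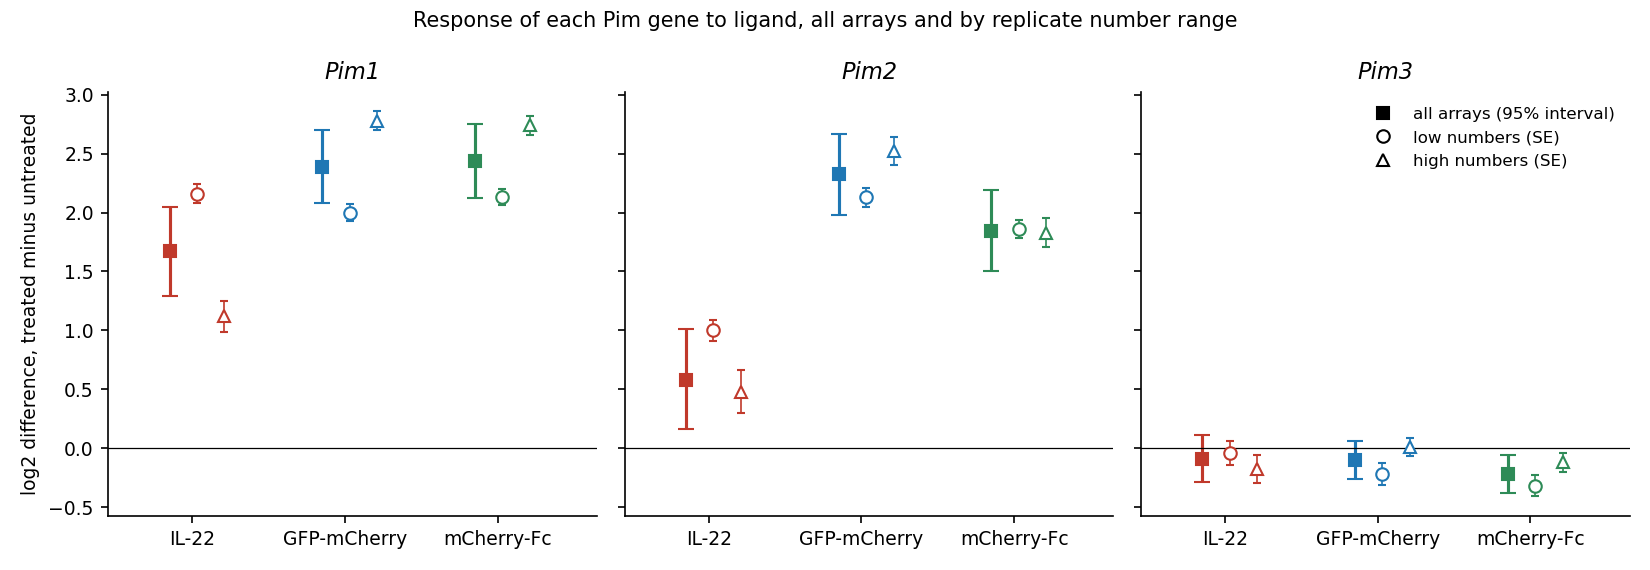
Log2 difference of each PIM gene from untreated cells of the same line, over all arrays (squares, with the 95% interval from limma) and within low and high replicate numbers (circles and triangles, with the SE). Pim1 lay between 1.12 and 2.78 throughout, Pim2 lay between 1.83 and 2.52 with the synthetic ligands and between 0.48 and 1.00 with IL-22, and Pim3 lay no farther from 0 than -0.32.

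The direct comparison of the synthetic ligands asked whether the fusion protein and mCherry-Fc left different levels. No PIM gene passed (limma), and 1 of the 3 had an unadjusted p below 0.05, as did 8.78% of all genes. Over all genes 1.09% passed, which is 218 genes, or 100 with the fixed replicate block. Genes higher with GFP-mCherry made up 0.722% and lower ones 0.371%, and 2.96% of genes had groups that did not overlap, which no PIM gene did. Pim1 differed by -0.05 (GFP-mCherry minus mCherry-Fc, 95% interval -0.36 to 0.27, limma, adjusted p = 0.975), at -0.13 within low and 0.04 within high numbers. Pim2 was 0.48 higher with GFP-mCherry (SE 0.17, 95% interval 0.14 to 0.83, limma, adjusted p = 0.282), and its groups overlapped by 0.01. With a batch term for the number range, the same 0.48 had an adjusted p of 0.00234, and within high numbers alone the difference was 0.69 (adjusted p = 0.0184) against 0.28 (adjusted p = 0.0799) within low numbers. The 3 arrays sharing a number between the groups gave 0.42, 0.39 and 0.53. Pim3 was 0.12 higher with GFP-mCherry (95% interval -0.04 to 0.28, limma, adjusted p = 0.747), at 0.10 within low and 0.14 within high numbers.

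Responses were then compared between the lines by an interaction term. The Pim2 response to GFP-mCherry exceeded that to IL-22 by 1.74 on the log2 scale (SE 0.27, 95% interval 1.19 to 2.29, limma, adjusted p = 3.33e-05). For mCherry-Fc the excess was 1.26 (SE 0.27, 95% interval 0.71 to 1.81, adjusted p = 0.00173). These are differences in change, from unequal start levels. Pim2 started at 8.16 in synthetic and 11.49 in natural cells, and ended higher with IL-22 (12.08) than with GFP-mCherry (10.48) or mCherry-Fc (10.00). Pim1 started at 9.31 and 10.50. The part of the start level in these differences was not tested. The Pim1 response was larger by 0.72 with GFP-mCherry (SE 0.24, adjusted p = 0.0449) and by 0.77 with mCherry-Fc (SE 0.24, adjusted p = 0.0328). Over all genes 13.6% and 13.4% passed these interactions, 9.23% and 8.76% upward and 4.40% and 4.60% downward, beside 2 of the 3 PIM genes upward in each. Of the genes called in these interactions 67.7% and 65.6% were higher, or 83.2% and 82.8% with each array centred on its median. Both interactions share the natural arrays and the untreated synthetic arrays.

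The Pim1 interactions depended on the number range. Within low numbers they were -0.16 (adjusted p = 0.273) and -0.03 (adjusted p = 0.856). Within high numbers they were 1.66 and 1.62, where the IL-22 group holds 1 array that is assumed to vary like the others. With the fixed replicate block the Pim1 values were 0.62 (adjusted p = 0.124) for GFP-mCherry and 0.75 (adjusted p = 0.104) for mCherry-Fc. The first call was also lost on leaving out any 1 of 14 of the 20 arrays involved (adjusted p from 0.0522 to 0.134), namely IL-22 arrays 1, 2, 3 and 5, untreated natural arrays 4 and 5, GFP-mCherry arrays 9, 11, 12, 13 and 14 and untreated synthetic arrays 12, 13 and 14. The second was lost without IL-22 array 3, untreated natural array 4 or 5, or untreated synthetic array 12 or 14 (adjusted p from 0.0534 to 0.0981). Pim2 kept its sign in both ranges, at 1.14 and 2.04 for GFP-mCherry and 0.86 and 1.35 for mCherry-Fc. Pim3 passed in neither interaction over all arrays (-0.01 and -0.13, adjusted p = 0.965 and 0.526), and the differences were -0.18 and -0.28 within low numbers and 0.19 and 0.05 within high numbers.

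Untreated cells of the 2 lines already differed. Pim2 was 3.33 lower on the log2 scale in synthetic than in natural receptor cells (log2 difference -3.33, SE 0.19), or 10.1-fold lower (limma, adjusted p = 2.15e-13), with a gap of 2.51 between the groups, and ranked 9 among all genes. Pim1 was 2.27-fold lower (log2 difference -1.18, SE 0.17, adjusted p = 1.2e-05), with a gap of 0.26. Pim3 differed by -0.07 (adjusted p = 0.704), at 0.13 within low (adjusted p = 0.461) and -0.27 within high numbers (adjusted p = 0.0374). Of all genes 15.2% passed, 6.62% downward and 8.60% upward, and 10.0% had groups that did not overlap. Of the 3 PIM genes 2 passed, both downward and without overlap. Of the 6 myeloid markers 4 were also lower in the synthetic line (list median -1.47 against 0.01 over all genes), and their part in the difference was not tested. Among low-numbered arrays, treated ones included, only Itgam (8.73 to 8.98 natural, 5.18 to 6.02 synthetic) and Adgre1 (4.72 to 4.83 and 4.24 to 4.53) lay apart between the lines. There Mpo read 6.97 to 7.19 natural and 7.15 to 7.32 synthetic, and Lyz2 read 5.11 to 5.24 and 4.96 to 5.55. Within low numbers, where the natural arrays have the lower myeloid levels, Pim2 differed by -2.61 and Pim1 by -0.36 (adjusted p = 0.00659). Within high numbers the differences were -4.06 and -2.0.

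The members also changed by unequal amounts within arrays, which was tested on the per-array log2 difference between genes in 9 two-sided exact permutation tests with Benjamini-Hochberg adjustment over the 9. With GFP-mCherry the Pim1 and Pim2 changes differed by 0.06 (exact p = 0.587, adjusted 0.587). With mCherry-Fc Pim1 rose more than Pim2 by 0.59, or 1.51-fold (exact p = 0.00216, the smallest that 6 arrays against 6 allow, adjusted 0.0039). With IL-22 the Pim1 change exceeded that of Pim2 by 1.09, or 2.12-fold (exact p = 0.0286, the smallest that 4 against 4 allow, adjusted 0.0367). That call was lost without any 1 of the 4 untreated natural arrays (adjusted p from 0.0643 to 0.0735) and kept without any 1 of the 4 IL-22 arrays. Without untreated array 2, 3, 4 or 5 the excess itself was 1.14, 1.10, 1.06 or 1.03, and fewer arrays allow fewer regroupings.

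Against Pim3, the Pim1 change was larger by 1.76 with IL-22 (exact permutation, adjusted p = 0.0367), by 2.49 with GFP-mCherry and by 2.66 with mCherry-Fc (adjusted p = 0.0039 for each). The Pim2 change exceeded that of Pim3 by 2.43 and 2.06 with the synthetic ligands (adjusted p = 0.0039 for each). With IL-22 the Pim2 excess was 0.67 (exact p = 0.171, adjusted 0.193), and it was 0.93 without untreated natural array 5 (adjusted p = 0.0367).

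**Figure D3:**
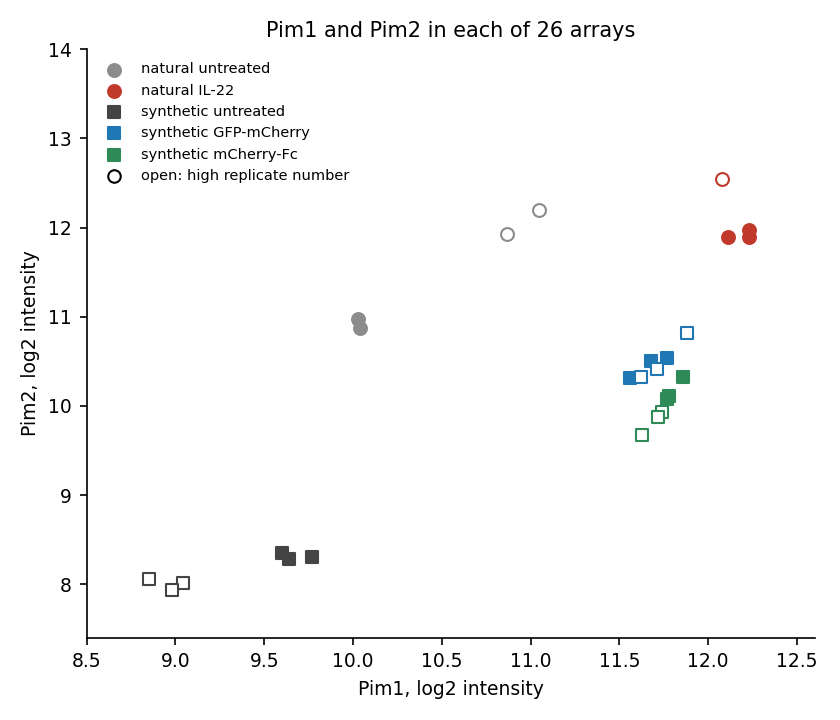
Log2 intensity of Pim2 (vertical axis) against Pim1 (horizontal axis) on the 26 arrays, coloured by group, with high replicate numbers drawn open. Every natural receptor array lay above every synthetic receptor array in Pim2 (10.87 or more against 10.82 or less), while in Pim1 the treated synthetic arrays (11.56 or more) lay above the untreated natural ones (11.05 or less).

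Across the 26 arrays Pim1 and Pim2 correlated at r = 0.73 (Spearman 0.61), and at 0.77 after group means were taken out. Pim1 and Pim3 correlated at -0.23 (0.52 within groups) and Pim2 and Pim3 at 0.12 (0.28 within groups). These are descriptions without a test, since arrays of 1 group, line and number range share their conditions.

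Low and high replicate numbers were then set apart, and tests of the difference between them were added after the data had been seen. Untreated natural arrays 4 and 5 read higher than 2 and 3 by 0.93 for Pim1 (limma, adjusted p = 5.47e-07) and by 1.14 for Pim2 (adjusted p = 3.03e-06), and 13.7% of all genes passed this test. Untreated synthetic arrays went the other way, with high numbers lower by 0.71 for Pim1 (log2 difference -0.71, adjusted p = 2.04e-05), by 0.31 for Pim2 (-0.31, adjusted p = 0.0299) and by 0.35 for Pim3 (-0.35, adjusted p = 0.00434), beside 29.4% of all genes. For Pim1 the treated arrays differed between ranges by -0.12 with IL-22 (adjusted p = 0.570), 0.07 with GFP-mCherry and -0.10 with mCherry-Fc (adjusted p = 0.394). Over all genes 15.7%, 0.00502% and 10.5% passed these 3 tests. For Pim2 the 1 high-numbered IL-22 array, number 5, was 0.62 higher than the 3 low-numbered ones (adjusted p = 0.0048), a test in which its spread is assumed from the other groups. With mCherry-Fc the 3 high-numbered arrays differed by -0.34 (adjusted p = 0.0429), and with GFP-mCherry by 0.07.

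Responses were compared between the ranges as well. The Pim1 response to IL-22 was 2.16 on the log2 scale within low numbers (SE 0.08, limma, adjusted p = 1.18e-10) and 1.12 within high numbers (SE 0.13, adjusted p = 0.000263). The high-numbered IL-22 arm, here and for Pim2, is 1 array, number 5, which is assumed to vary like the other groups. The difference between them of -1.04 passed (SE 0.14, adjusted p = 0.000237), as it did for 1.16% of all genes. With GFP-mCherry the Pim1 response went from 2.00 to 2.78 (difference 0.78, adjusted p = 0.00318, 6.63% of genes passing). With mCherry-Fc it went from 2.13 to 2.74 (difference 0.61, adjusted p = 0.0469, 0.476% of genes passing).

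For Pim2 the response to IL-22 was 1.00 within low numbers (SE 0.09, limma, adjusted p = 1.23e-06) and 0.48 within high numbers (SE 0.18, adjusted p = 0.245), and the difference of -0.52 did not pass (adjusted p = 0.252). Its GFP-mCherry responses of 2.13 and 2.52 (difference 0.38, adjusted p = 0.123) and its mCherry-Fc responses of 1.86 and 1.83 (difference -0.03, adjusted p = 0.952) did not pass a test of the difference either. Pim3 with mCherry-Fc was -0.32 within low numbers (adjusted p = 0.018) and -0.12 within high numbers (adjusted p = 0.304).

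Genes that act around the PIM kinases were read from 4 lists written from general knowledge. Of the inducers, which are the JAK-STAT and NF-kB genes with Klf5 and Hoxa9, 12 of 15 were measured, and with IL-22 6 rose and 0 fell, where 5.39% and 6.03% of all genes did (list median 0.28 on the log2 scale against -0.02 over all genes). Stat5a rose by 1.53 (SE 0.06, limma, adjusted p = 1.86e-17), Stat3 by 0.98 (SE 0.06, adjusted p = 3.17e-12) and Jak2, the kinase paired with many cytokine receptors, by 0.74 (SE 0.09, adjusted p = 3.57e-07). Within high numbers 3 rather than 6 inducers passed with IL-22. With the synthetic ligands these 3 named genes did not pass the test. Stat3 differed by -0.05 with GFP-mCherry and 0.09 with mCherry-Fc, Stat5a by -0.04 and -0.05, and Jak2 by 0.01 and 0.04.

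The difference between responses was tested for these genes. GFP-mCherry minus IL-22 came to -1.58 for Stat5a (limma, adjusted p = 8.83e-15), -1.03 for Stat3 (adjusted p = 8.04e-10) and -0.73 for Jak2 (adjusted p = 4.13e-05). For mCherry-Fc the same differences were -1.59, -0.89 and -0.70. Pim2 went the other way in both tests (1.74 and 1.26, above). All of these are mRNA levels, and a link between the inducers and Pim2 was not tested.

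GFP-mCherry raised 2 and lowered 2 of the 12 measured inducers (median -0.04 against -0.04 over all genes), where 14.2% and 11.8% of all genes did, so the list is near the background. Nfkb2, the p100 NF-kB subunit, rose by 1.13 (SE 0.06, limma, adjusted p = 1.3e-13) and Relb, its partner, by 0.82 (SE 0.10, adjusted p = 4.94e-07), while Rel fell by 0.32 (adjusted p = 0.017), a call lost after median centring (-0.22, adjusted p = 0.135) and within low numbers (-0.15, adjusted p = 0.0692). mCherry-Fc raised 1 and lowered 3 of the 12 (median -0.07), where 14.0% and 13.0% of all genes did. Rel fell by 0.42 (adjusted p = 0.00279), Hoxa9 by 0.24 (adjusted p = 0.00545) and Klf5 by 0.27 (adjusted p = 0.016). With the fixed replicate block Hoxa9 did not pass (-0.18, adjusted p = 0.063), and without untreated array 7 Klf5 did not (-0.21, adjusted p = 0.0554). Neither passed after median centring (Hoxa9 -0.14, adjusted p = 0.0733, Klf5 -0.16, adjusted p = 0.103). Quantile normalization also left neither call (Hoxa9 -0.15, adjusted p = 0.06, Klf5 -0.2, adjusted p = 0.0846). After quantile normalization 2 rather than 4 inducers passed with mCherry-Fc. The synthetic ligands differed from each other by 0.96 for Nfkb2 (adjusted p = 3.27e-12) and by 0.93 for Relb (adjusted p = 3.17e-07), both higher with GFP-mCherry.

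Among the PIM substrates, proteins that PIM kinases are known to phosphorylate, 25 of 26 were measured. With IL-22 8 rose and 6 fell (median -0.01), beside 11.4% of all genes called, and within high numbers 5 rather than 14 passed. Socs3, the feedback inhibitor of cytokine receptors, rose by 4.30 (SE 0.09, limma, adjusted p = 7.24e-24), Notch1 rose by 1.04 (adjusted p = 1.87e-09) and Nfatc1 fell by 0.47 (adjusted p = 1.05e-07). With GFP-mCherry 5 rose and 4 fell (median 0.02), and with mCherry-Fc 6 rose and 3 fell (median 0.03), beside 26% and 26.9% of all genes called. Myc, the transcription factor that PIM kinases stabilise, rose by 0.97 with GFP-mCherry (SE 0.07, adjusted p = 7.37e-11) and by 1.40 with mCherry-Fc (SE 0.07, adjusted p = 2.78e-13), 0.42 less with the former (log2 difference -0.42, adjusted p = 0.000636). Socs3 rose by 1.02 (adjusted p = 2.46e-11) and 0.94 (adjusted p = 3.45e-10), and the chemokine receptor gene Cxcr4 fell by 0.53 (adjusted p = 8.95e-06) and 0.47 (adjusted p = 6.67e-05).

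Of the kinases that work beside the PIM family in survival and growth, 8 of 11 were measured. With IL-22 4 rose (median 0.19), with GFP-mCherry 2 (median 0.01) and with mCherry-Fc 3 (median 0.06), and 0 fell in any of these contrasts. Of all genes 5.39%, 14.2% and 14.0% rose in these contrasts, so with GFP-mCherry the count is near the background. With IL-22 the ribosomal S6 kinase gene Rps6ka3 rose by 1.06 (limma, adjusted p = 6.87e-08), Akt2 by 0.45 (adjusted p = 0.000115) and Akt1 by 0.27 (adjusted p = 0.00518). With GFP-mCherry Akt1 rose by 0.34 (adjusted p = 2.35e-05) and Akt2 by 0.21 (adjusted p = 0.0138). With mCherry-Fc Akt1 rose by 0.28 (adjusted p = 0.000484), Akt2 by 0.25 (adjusted p = 0.00535) and Sgk3 by 0.16 (adjusted p = 0.0353). With the fixed replicate block 2 rather than 4 of these kinases passed with IL-22, Akt1 no longer among them (adjusted p = 0.108), and Sgk3 did not pass with mCherry-Fc (adjusted p = 0.108). Sgk3 also did not pass without untreated array 7, 9 or 11 or mCherry-Fc array 8, 9, 13 or 14 (adjusted p from 0.0515 to 0.0923). Within high numbers, where the IL-22 group is 1 array, Rps6ka3 differed by 0.77, Akt2 by 0.36 and Akt1 by 0.27 with IL-22. Within low numbers 1 of the kinases passed with mCherry-Fc, and it was Sgk3 (0.30, limma, adjusted p = 0.00393). Akt1 (0.15, adjusted p = 0.0861) and Akt2 (0.14, adjusted p = 0.0909) did not pass there. Nor did Akt2 with GFP-mCherry within low numbers (0.14, adjusted p = 0.0813). Within high numbers Sgk3 differed by 0.03 with mCherry-Fc (adjusted p = 0.788).

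The last list holds genes that set the stability or translation of PIM mRNA and protein, 5 of 6 measured, of which 3 rose and 0 fell in each contrast with untreated cells (medians 0.21, 0.15 and 0.20), while 5.39%, 14.2% and 14.0% of all genes rose. Zfp36, a protein that speeds decay of AU-rich mRNAs, rose by 3.35 with IL-22 (SE 0.15, limma, adjusted p = 6.67e-16), 0.60 with GFP-mCherry (adjusted p = 0.000604) and 0.68 with mCherry-Fc (adjusted p = 0.000226). Eif4e, the cap-binding translation factor, rose by 0.21, 0.15 and 0.22 (adjusted p = 0.0219, 0.0261 and 0.00248), and its IL-22 call was lost with the fixed replicate block (adjusted p = 0.0619). Eif4e also did not pass with IL-22 without IL-22 array 2 or 3 or untreated array 3 or 4 (adjusted p from 0.0601 to 0.0782). With GFP-mCherry it did not pass without treated array 12 or 13 or untreated array 7, 9 or 11 (adjusted p from 0.0502 to 0.0741). Averaged over its probe sets, Eif4e differed by 0.08 with IL-22, 0.08 with GFP-mCherry and 0.17 with mCherry-Fc, and no call was left (adjusted p = 0.712, 0.393 and 0.0598). Within high numbers its mCherry-Fc difference was 0.11 (adjusted p = 0.181). Within high numbers 1 rather than 3 genes of the list passed with GFP-mCherry. Of the catalytic subunits of phosphatase PP2A, Ppp2cb rose by 0.73 with IL-22 (adjusted p = 8.67e-09), and Ppp2ca rose by 0.18 with GFP-mCherry (adjusted p = 0.00838) and 0.20 with mCherry-Fc (adjusted p = 0.00494). The GFP-mCherry call of Ppp2ca was lost after quantile normalization (0.12, limma, adjusted p = 0.0919) and within high numbers (0.12, adjusted p = 0.142).

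**Figure D4:**
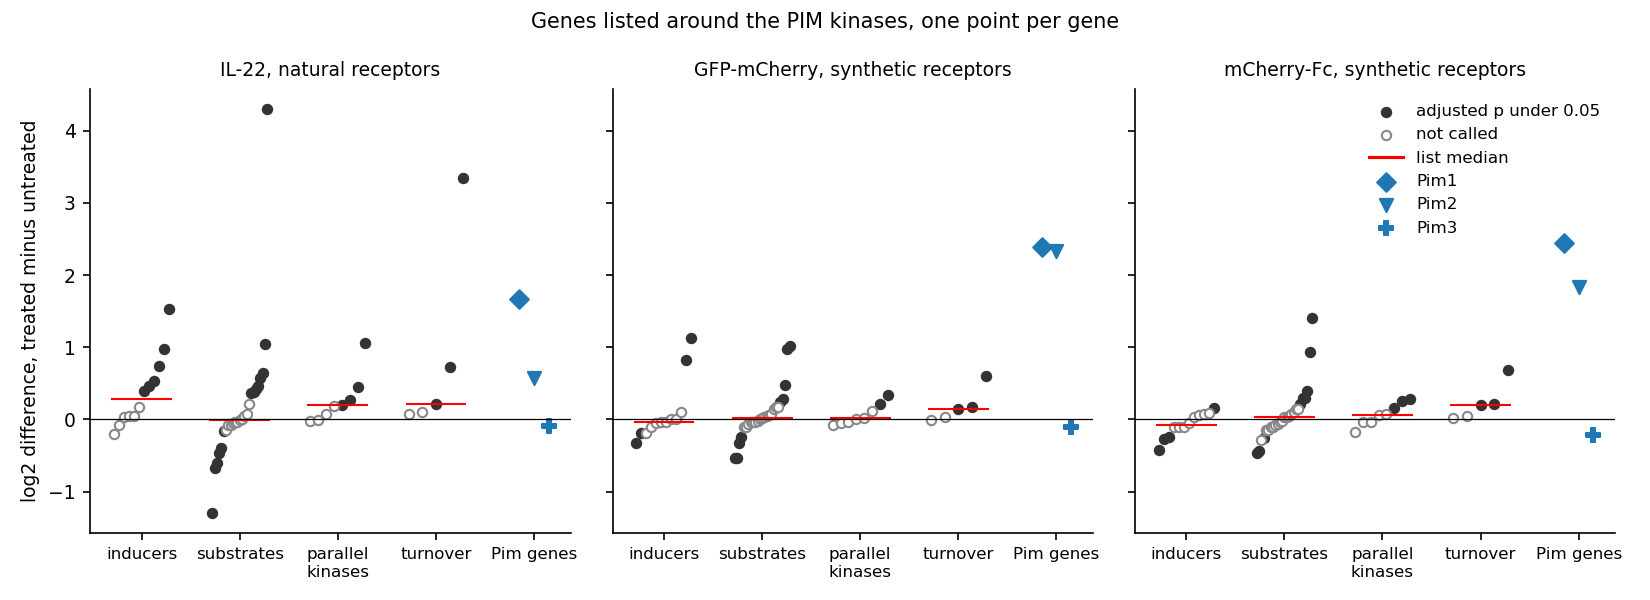
Log2 difference from untreated cells in each contrast, with 1 point for each measured gene of the 4 lists (filled where limma's adjusted p was below 0.05), the list median as a line, and Pim1, Pim2 and Pim3 apart. With IL-22 Socs3 (4.30) and Zfp36 (3.35) lay farther out than Pim1 (1.67), whereas with the synthetic ligands Pim1 and Pim2 lay farther out than any other gene drawn.

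Of 14571 named genes with a mean log2 intensity of at least 5, those with the pattern most like Pim1 over the 26 arrays were Relt (r = 0.94), Rab27a (0.93), Snora7a (0.93), Nop56 (0.93) and Sinhcaf (0.92). Those most like Pim2 were Clptm1l (r = 0.98), Plec (0.96), Slc16a6 (0.95), Lcp1 (0.94) and Tubb6 (0.94). For Pim3 they were Megf6 (r = 0.91), Tenm4 (0.91), Amn (0.91), Col1a2 (0.90) and Mir375 (0.90). The 3 sets share no gene. These values are descriptions over arrays that share 5 groups. After group means were taken out, r in the same order was 0.57, 0.61, 0.27, -0.13 and 0.25 for the Pim1 set. It was 0.79, 0.74, 0.82, 0.81 and 0.93 for the Pim2 set, and 0.87, 0.92, 0.88, 0.88 and 0.89 for the Pim3 set.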

How the data were processed

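The authors deposited log2 intensities, 1 for each probe set and array, made with Affymetrix Expression Console 4.0, per the submitters' processing notes. The summarisation algorithm, background correction and any filter are not given in the sources used here. Values spanned 1.79 to 14.31, array medians 6.06 to 6.28, and no pair of arrays was identical. The number of arrays limits the precision, and differences between number ranges add to the spread within groups.

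Of 35556 probe sets, 21789 had 1 gene symbol in the platform annotation, 1621 several and 12146 none. Entrez identifiers matched RefSeq GRCm38.p6 records for 21698, and 91 kept the annotation's name. Where several probe sets read 1 gene (999 genes), the brightest on average stood for it, which left 19938 genes, without a filter on dim genes.

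All 26 arrays in 5 groups entered 1 limma model (R 4.3.3, limma 3.58.1, lmFit and eBayes, two-sided) for 7 comparisons, with Benjamini-Hochberg adjustment over all genes and a threshold of 0.05. The fit was tested on simulated data. Rose and fell are used of genes past that threshold. Changes in 1 member relative to another were tested on per-array differences with exact permutation tests. Promoter windows came from RefSeq. Myeloid, B lineage, T cell, mast cell and erythroid markers were read as lists.

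Deviations of same-numbered arrays from their group means correlated at 0.31 to 0.62 (natural), 0.26 to 0.47 (mCherry-Fc and untreated) and 0.11 to 0.27 (both synthetic ligands). For GFP-mCherry and untreated arrays the correlations were -0.15 to 0.42. The main model paired no arrays. Pairing by number entered only as an alternative, the replicate block, which covered all of these groups. The labels do not say what a number marks.

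Members, lists and comparisons were chosen with earlier results of these data known. The named genes were the 3 PIM genes, in each contrast with untreated cells up to 3 called genes of each list with the smallest p, and the 5 genes most like each PIM gene by Pearson r. Stat3, Stat5a, Jak2, Nfkb2, Relb and Myc are also given in other comparisons, and this was chosen after their values were seen. List genes without a row were not analysed here. Alternatives were renormalization, median centring, mean of probe sets, a variance trend, array weights, replicate blocks, number ranges, a batch term, separate fits and leaving out each array.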

Additional observations from a re-analysis of the deposited data

Results flagged for a closer look

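Pim2 on IL-22 array 5 of the natural receptor cells read 12.55 (log2 intensity), far above the other 3 arrays of its group for a group of 4, with a gap that made up 0.896 of the group's range. 15 sets of arrays were examined in this way, and chance marks about 5% of such sets. The same array had high myeloid markers, and their part in the value was not tested.

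Responses differed between the lines by a test of the difference itself. The Pim1 response was larger than that to IL-22 by 0.72 with GFP-mCherry (limma, adjusted p = 0.0449) and by 0.77 with mCherry-Fc (adjusted p = 0.0328). These Pim1 calls were lost within low numbers (-0.16 and -0.03), with the fixed replicate block (adjusted p = 0.124 and 0.104) and, for GFP-mCherry, without any 1 of 14 of the 20 arrays. The Pim2 response was larger by 1.74 (adjusted p = 3.33e-05) and by 1.26 (adjusted p = 0.00173). Start levels of both genes differed between the lines, and their part in these differences was not tested.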

How the results depend on the processing

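Pim1 against untreated cells, Pim2 with both synthetic ligands, and Pim1 and Pim2 between the untreated lines kept their direction and their call in every alternative run. Pim2 with IL-22 passed with array weights (0.60), with the replicate block fixed (0.79) or random (0.63), within low numbers (1.00) and with the batch term (0.81), and leaving out 1 array gave 0.37 to 0.82. Pim3 with GFP-mCherry was 0.00 after median centring and 0.01 within high numbers. Pim3 with mCherry-Fc missed the threshold after quantile normalization (-0.24), centring (-0.11), array weights (-0.19), within high numbers (-0.12) and with only the groups compared (-0.22), and ranged from -0.28 to -0.16 on leaving out 1 array. Between the ligands, Pim1 was 0.04 within high numbers, and Pim2 passed within high numbers (0.69), with the batch term (0.48) and with only those groups (0.48).

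The Pim1 response difference with GFP-mCherry missed the threshold after quantile normalization (0.66), with a trended variance (0.72), with the fixed replicate block (0.62) and with only the groups compared (0.72), was -0.16 within low numbers, and ranged from 0.54 to 0.88 without 1 array. With mCherry-Fc the same settings gave 0.72, 0.77, 0.75, 0.77 and -0.03, and 0.58 to 0.92. For Pim3 the GFP-mCherry response difference was 0.07 after centring, 0.01 with array weights and 0.19 within high numbers (-0.07 to 0.05 without 1 array), and with mCherry-Fc it was 0.05 within high numbers. Between the untreated lines Pim3 was 0.13 within low and -0.27 within high numbers. Without 1 array, the Pim1 minus Pim2 change was 1.00 to 1.27 with IL-22 and -0.01 to 0.12 with GFP-mCherry, and Pim2 minus Pim3 with IL-22 was 0.48 to 0.93.

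Counts of called genes moved by over 1.5 times for IL-22 (759 within high numbers, 1222 with only those groups, against 2277), mCherry-Fc (3234 after quantile normalization, against 5371) and the untreated lines (5750 within high numbers, 1722 with only those groups, against 3034). Between the ligands 218 genes became 478 with array weights, 100 with the fixed replicate block, 504 within low numbers, 469 with the batch term and 460 with only those groups. The response differences gave 4583 and 4253 genes within low numbers, 916 and 872 within high numbers and 4153 and 4279 with the batch term, against 2718 and 2664. The cause was not tested. The fixed replicate block changed no call of a PIM gene beyond those named. The number of arrays, the differences between number ranges and the unknown summarisation limit these values.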
